A study of Mus musculus with 9 samples.

Results

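In chromatin of the mouse mammary gland, 524 of 124860 accessible regions stood higher in the ER+ luminal cells of pregnant mice than in any other cell type or stage of the study. They were chosen by their signal in the ATAC-seq libraries: on the scale log2(signal + 1), the ER+ luminal pregnancy library had to exceed each of the other 8 libraries by at least 1, and its signal had to reach 20. The height of these regions in that library is therefore a description of how they were chosen and was not tested. ATAC-seq uses the Tn5 transposase to cut and tag open DNA, so that a higher signal marks a more accessible region. A weighted average of the other 8 libraries, with weights adding up to 1, cannot exceed the highest of them. None of the 524 regions thus had a measured signal in ER+ luminal pregnancy that such an average could give. This follows from the rule for any region it keeps, and it takes no account of read noise, which is considered below.

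The study sorted basal cells, ER+ luminal cells and ER- luminal cells by FACS from mammary glands at puberty, in adulthood and in mid pregnancy, and each of the 9 combinations had 1 library. All mice, per the labels, carried the genotype ERrtTA/TetOCre/rosaYFP, which names an rtTA transgene, a TetO-driven Cre and a YFP reporter at Rosa26 (ages, and whether the transgenes were induced, are not stated). The whole study thus had no replicate of any cell type and stage. The file names regions by running numbers and gives neither their genes nor their positions or lengths, so the sorted cell types could not be checked against marker genes, no sequence is shown, and signal is a total per region and not per base.

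Mammary ducts have an inner lining of luminal cells, wrapped in basal cells that contract to expel milk. ER+ luminal cells, also called hormone-sensing cells, carry the receptors for oestrogen and progesterone and pass the hormonal signal on to their neighbours through secreted factors. In pregnancy the gland grows alveoli, whose milk-producing cells come largely from the ER- luminal lineage. An accessible region is usually a promoter, an enhancer or another site where proteins displace nucleosomes.

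The libraries held 2186941 to 11328189 reads in regions. The 3 pregnancy libraries were the shallowest, and ER+ luminal pregnancy held 2641254 reads, so that 1 read there was worth 1.70 units of signal, against 0.526 in ER+ luminal puberty and 0.855 in ER+ luminal adult. The range of its values was also compressed: the 10th and 90th percentiles over all regions were 5.09 and 83.1, against 1.58 and 139 in ER+ luminal puberty and 1.71 and 125 in ER+ luminal adult. Its 10th percentile was the highest of the 9 libraries, and its 90th percentile was the lowest. The part of depth and of this compression in the results below was not tested, except where a value at equal depth is given.

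The 524 regions, 0.42% of all, were faint everywhere but in the library they were chosen on. Their signal in ER+ luminal pregnancy had a median of 32.2, with quartiles of 25.4 and 44.1 and a range of 20.3 to 4553. In ER+ luminal cells of earlier stages the medians were 2.63 at puberty and 6.84 in adults. In the ER- luminal libraries the medians were 2.87, then 4.46 in adults and 7.58 in pregnancy. Basal cells had 6.33, 3.95 and 8.80 at these stages. In sorted bulk cells, more open alleles per cell and more cells with an open region cannot be told apart. The medians over all regions were 13.6 to 18.0 in the 9 libraries, so that a typical member lay below a typical region in each of the 8 other libraries. Averaged over those 8 libraries, 506 of the 524, or 96.6%, lay under the median region, which had a mean of 17.9, and the median member had 5.91. These low levels follow in part from the rule, which caps the other libraries. Sets peaking in the other libraries by the same rule were also low outside their own library. Their like medians ran from 7.43 (basal pregnancy) to 10.6 (ER- luminal puberty).

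**Figure D1:**
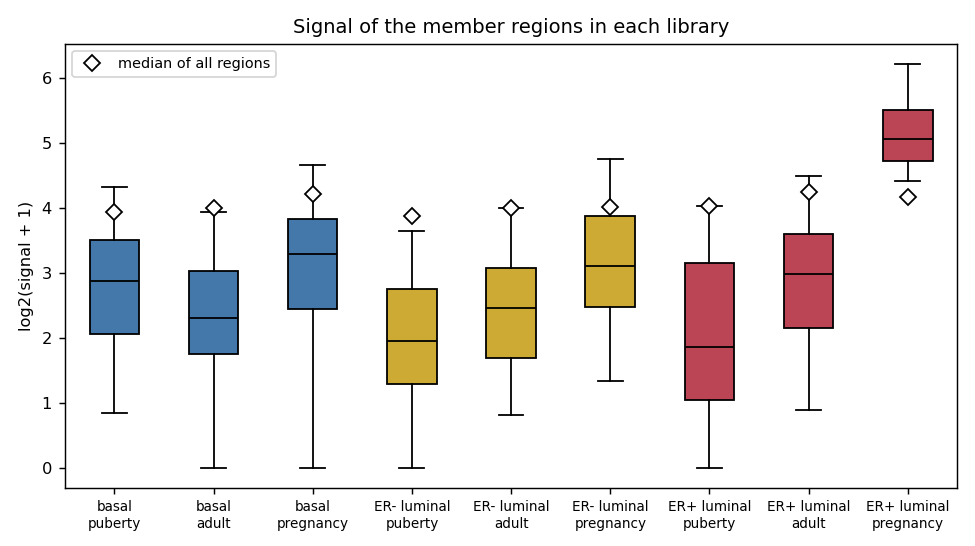
Signal of the 524 regions in each of the 9 libraries, as log2(signal + 1). Boxes span the quartiles with the median as a line, whiskers reach from the 5th to the 95th percentile, and diamonds give the median of all 124860 regions; the member medians lie under the diamonds in all libraries but ER+ luminal pregnancy, which chose them.

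Most of these regions passed the limit narrowly. Their margin, the log2 difference between ER+ luminal pregnancy and the next highest library, had a median of 1.24 and quartiles of 1.10 and 1.45. A margin of 1.5 or more was found in 107 regions, of 2 or more in 20 and of 3 in 0, the highest being 2.98. In ratios of signal the median was 2.47 and the range 2.03 to 10.6. The limits cut through a continuous distribution. There were 127 members with a margin between 1 and 1.1, and 144 regions that missed it with a margin between 0.9 and 1, both with a median signal of 30.5. The lowest signal among members was 20.3, at 12 reads, shared by 42 regions, while 40 regions with a sufficient margin had 18.6 at 11 reads and so fell out. In all, 5233 regions with a signal of at least 20 had their highest value in this library.

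**Figure D2:**
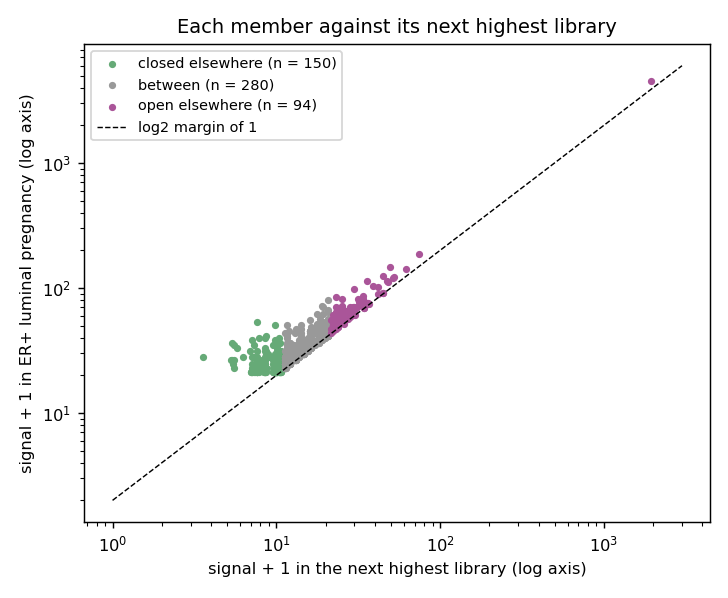
Each of the 524 regions by its signal in ER+ luminal pregnancy and in its next highest library, both plus 1 and on log axes; colours give the 3 classes by signal elsewhere, and the dashed line is the margin of 1. The points crowd along the line at low signal, and merged66920 alone lies above 1000.

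The brightest member, merged66920, was bright in all 9 libraries and differed from the rest of the set. Its signal was 4553 in ER+ luminal pregnancy, against 1952 for ER- luminal cells and 1137 for basal cells of that stage. At puberty and in adults, basal cells had 1547 and 772, ER- luminal cells 444 and 687, and ER+ luminal cells 224 and 466. The ER+ luminal library thus was the lowest of the 3 cell types at puberty and in adults and the highest in pregnancy. The ratio to ER- luminal pregnancy was 2.33 with an exact 95% counting interval of 2.18 to 2.49 from 2686 and 1287 reads. This region alone held 18.7% of the 14376 reads that ER+ luminal pregnancy had in the 524 regions. The mean signal of the set there was 46.5 with it and 37.9 without it.

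The largest margin belonged to merged95708, at 2.98. Its signal was 27.1 in ER+ luminal pregnancy, from 16 reads, and 2.57 in ER+ luminal adult, from 3 reads. ER+ luminal puberty and the ER- luminal and basal pregnancy libraries had no read there, which allows up to 3 reads, or 1.58, 4.55 and 6.60 units. Basal cells had 2.37 at puberty and 0.789 in adults, and ER- luminal cells had 0.717 and 0.743. The ratio to ER+ luminal adult was 10.6 with an exact 95% counting interval of 3.03 to 56.6. The region with the strongest rise thus rested on 16 reads.

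Reads behind the set were few throughout. The median member had 19 reads in ER+ luminal pregnancy, with quartiles of 15 and 26. The exact 95% counting interval of the ratio to the next highest library lay above 1 in 382 of the 524 regions (72.9%) and above 2, close to the limit of the choice, in 14 (2.67%). These intervals cover counting error only, and they take no account of the choice of the regions by the same reads.

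The number found was set beside the number that read noise alone would give in 1 library. If the true level of every region in ER+ luminal pregnancy were the highest value seen in the other 8 libraries, Poisson noise of its reads would carry 111.3 regions past the rule, or 21.2% of the number found. With the true level at the mean of the other ER+ luminal and the other pregnancy libraries, the number was 2.15. Libraries vary by more than counting error, and a negative binomial with the common dispersion of the 8 other libraries (edgeR, a coefficient of variation of 27.9%) gave 1090.6 and 22.3 regions for the same levels, in order. The number found lay between these, so that how much of the set exceeds noise depends on the level taken as true.

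Applied to each of the other libraries, the same rule found 2438 regions peaking in ER+ luminal adult, 1309 in basal adult and 1205 in ER+ luminal puberty. Basal pregnancy had 563, ER- luminal pregnancy 446, ER- luminal puberty 208, and basal puberty and ER- luminal adult 136 each. Poisson noise would give 244.5 of the 563 in basal pregnancy and 56.8 of the 446 in ER- luminal pregnancy, and at most 3.65 in any puberty or adult library. With reads thinned to the depth of the shallowest library, the counts were 555 in ER+ luminal pregnancy, 589 in basal pregnancy and 571 in ER- luminal pregnancy. At that depth the libraries ranged from 350 in basal puberty to 3173 in ER+ luminal adult. ER+ luminal adult was also the library whose absence changed the count most: without it in the rule, 1123 regions peaked in ER+ luminal pregnancy, whereas leaving out any other library gave 539 to 741.

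**Figure D3:**
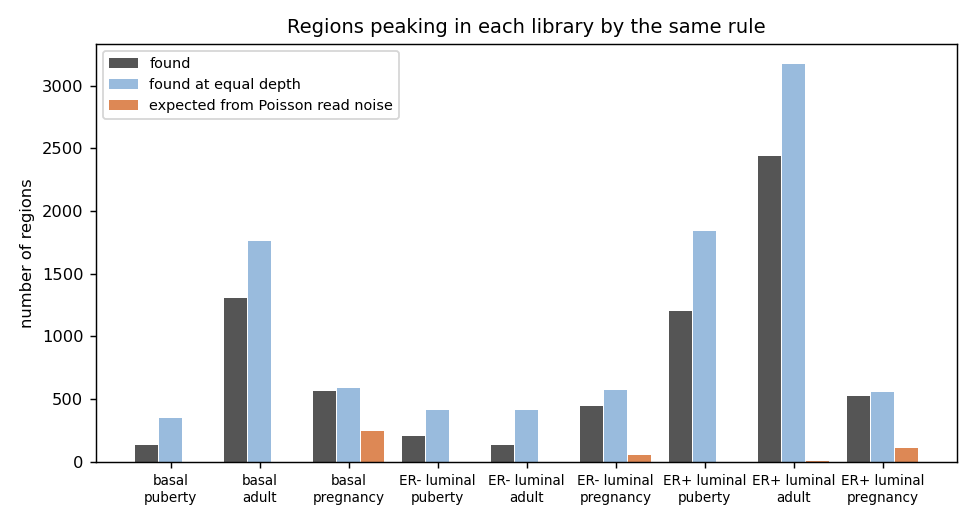
Number of regions that peak in each of the 9 libraries by the same rule, as deposited and with reads thinned to equal depth, and the number expected from Poisson read noise with the true level at the highest of the other 8 libraries. ER+ luminal pregnancy has 524 found against 111.3 expected, while ER+ luminal adult has 2438 against 3.65.

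To read the same libraries again with reads that had not made the choice, the reads of all 9 libraries were divided at random into 2 parts. In the first part 745 regions peaked in ER+ luminal pregnancy, with a median margin of 1.28. In the second part these had a median margin of 0.34, 470 of them (63.1%) still had ER+ luminal pregnancy as the highest library, and 152 passed the whole rule again, which is 20.4% of the first list and 19.97% of the 761 found in the second part. The like shares of the first list passing again were 18.7% in both basal and ER- luminal pregnancy, 15.6% in ER- luminal adult and 20.4% in basal puberty. They were 34.0% in ER- luminal puberty, 35.2% in basal adult, 40.6% in ER+ luminal puberty and 41.5% in ER+ luminal adult. Low shares were thus found in the 3 shallow pregnancy libraries and in 2 deeper ones. Both parts come from the same cells and library, so this measures counting error and no spread between animals.

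By their level in the other 8 libraries, 150 of the regions (28.6%) were closed elsewhere, with no other library at 10 or more, and 94 (17.9%) were open elsewhere, with another library at 20 or more. The other 280 lay between. Closed is a name for this limit only and does not mean without signal. The lower quartile of all regions was 4.73 to 8.80 in these 8 libraries, so a closed region could lie above it. Closed regions had a median signal of 23.7 in ER+ luminal pregnancy, from 14 reads, and a median margin of 1.47. Open regions had 61.0, from 36 reads, and a median margin of 1.18. The counting interval of the ratio to the next highest library lay above 1 in 100 of the 150 closed and in 94 of the 94 open regions. The levels of both classes follow in part from the rule, which asks for more signal where another library is high.

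Among regions closed elsewhere, merged70987 had the highest signal, 52.5 in ER+ luminal pregnancy from 31 reads. It had 3.42 in ER+ luminal adult and no read in ER+ luminal puberty. In basal cells it had 0.792 at puberty, no read in adults and 6.60 in pregnancy, and in ER- luminal cells 1.43, 0.743 and 6.07. The 2 other pregnancy libraries were thus next in order, at 3 and 4 reads. The ratio to basal pregnancy was 7.96, with an exact 95% counting interval of 2.48 to 40.7. Region merged52673 had 35.6 in ER+ luminal pregnancy and at most 4.40 elsewhere, with a ratio of 8.09 and an interval of 1.98 to 71.2.

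Regions open elsewhere had their lowest median, 3.42, in ER+ luminal puberty, against 14.2 in basal and 5.02 in ER- luminal puberty, and the ER+ luminal library was below both others in 57 of the 94 (60.6%) at puberty and in 42 (44.7%) in adults. Over the whole set these counts were 241 (46.0%) and 160 (30.5%), and over all regions 39.8% and 40.2%. After merged66920 the brightest of them was merged116561, with 185 in ER+ luminal pregnancy. It had 73.6, 26.0 and 37.4 in basal cells at puberty, in adults and in pregnancy, and 13.6, 25.3 and 72.8 in ER- luminal cells. ER+ luminal cells had 6.84 at puberty and 18.0 in adults, the lowest cell type at each of these stages. Region merged123859 had the largest margin of the open class, 1.87, with 83.1 in ER+ luminal pregnancy, 22.0 in basal and 21.2 in ER- luminal pregnancy, and 0.526 and 6.84 in ER+ luminal cells at puberty and in adults. In adults the medians of the open class were close, at 9.47 for basal cells, 9.66 for ER- luminal cells and 9.84 for ER+ luminal cells.

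The library next in height was more often another pregnancy library than one of the same cell type. ER- luminal pregnancy was next for 156 regions and basal pregnancy for 119, together 275 or 52.5%. ER+ luminal adult was next for 133 and ER+ luminal puberty for 43, together 176 or 33.6%. An earlier ER- luminal or basal library was next for 73, or 13.9%. Over all regions with a read, the highest of these 8 libraries was a pregnancy library in 19.9%, an earlier ER+ luminal library in 36.6% and an earlier ER- luminal or basal library in 43.6%. Pregnancy libraries have the coarsest values, 1.52 and 2.20 units per read in these 2, and the part of that in the order was not tested. Sets peaking in other stages by the same rule, where 3 pregnancy libraries could be next, also had such regions. A pregnancy library was next for 72 of 136 in basal puberty and 74 of 136 in ER- luminal adult. It was next for 540 of 1309 in basal adult and 874 of 2438 in ER+ luminal adult. In ER+ luminal puberty the count was 247 of 1205, and in ER- luminal puberty 52 of 208.

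**Figure D4:**
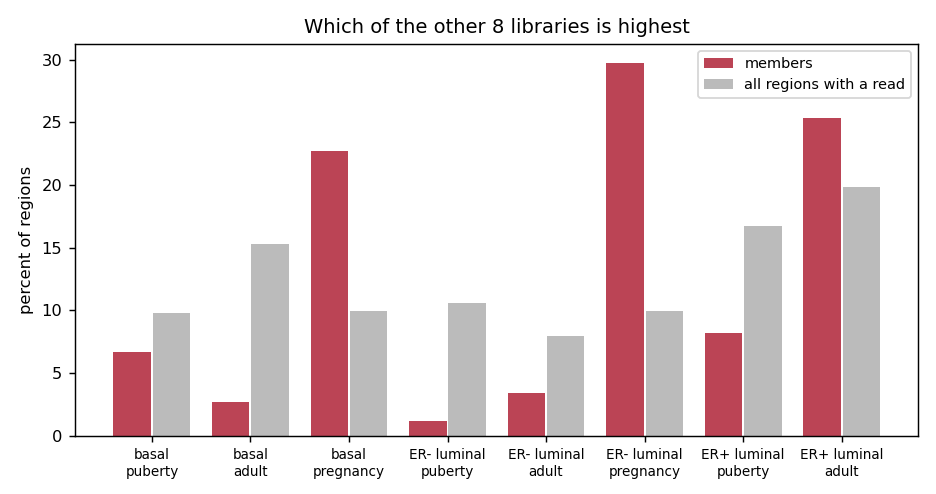
Share of the 524 regions (red) for which each of the 8 other libraries is the next highest, beside the share of all regions with a read (grey) for which it is the highest of these 8. The 2 other pregnancy libraries lead for 29.8% and 22.7% of the members, against 9.92% and 9.96% of all regions.

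Region merged45420 was the brightest not yet named whose next library was of pregnancy, with 146 for ER+ luminal cells against 48.4 for basal and 47.0 for ER- luminal cells of that stage. At puberty and in adults it had 23.0 and 19.7 for basal, 10.0 and 22.3 for ER- luminal and 2.63 and 6.84 for ER+ luminal cells. Region merged82139 was the brightest whose next library was of the same cell type, with 119 in ER+ luminal pregnancy, 50.5 in ER+ luminal adult and 15.2 in ER+ luminal puberty. Its other 6 values lay between 15.8 and 30.9 and did not rise from adult to pregnancy, with 27.3 in ER- luminal and 17.6 in basal pregnancy. The largest margins not yet named in these classes were those of merged96899, with 33.9 in ER+ luminal pregnancy and at most 4.55 elsewhere, and of merged20437, with 39.0 and at most 6.84, the latter in ER+ luminal adult.

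Whether the regions already differed between cell types or stages was tested in the 8 libraries other than ER+ luminal pregnancy. Limma was fitted over all 124860 regions, giving each cell type and each stage an effect of its own. These 8 libraries also entered the rule, which keeps each of them under the level in ER+ luminal pregnancy but does not order them. A region high in any of them was kept only where ER+ luminal pregnancy was higher still by the margin. The shares of members called are thus in part set by the choice, and how far was not tested. With no replicates, the error of the fit is how far libraries stray from the sum of their 2 effects (3 residual degrees of freedom), and no spread between animals enters it. A region was called where its p, adjusted by Benjamini-Hochberg over all regions, was under 0.05.

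For ER+ luminal cells at puberty and in adults, members were called in both directions, each less often than all regions. Against the mean of the 2 other cell types, 63 of the 524 (12.0%) were higher and 39 (7.44%) were lower, where 24.6% and 23.5% of all regions were called. The median log2 difference was 0.00 over the members and -0.10 over all regions, and the quartiles of the members were -0.95 and 1.10. Calls were thus fewer than the background in both directions, in a set that was fainter than the background and capped by the rule in these libraries. The balance of the directions moved with single libraries: 3 were higher and 28 lower without ER+ luminal adult (background 10.2% and 11.9%), 24 and 2 without ER+ luminal puberty (14.3% and 15.0%), 69 and 10 without basal puberty (23.5% and 21.1%), 33 and 42 without basal adult (21.1% and 19.6%), 44 and 47 without ER- luminal puberty (23.1% and 22.2%), and 44 and 21 without ER- luminal adult (20.5% and 19.7%). With reads thinned to equal depth 25 were higher and 18 lower (16.3% and 15.7%).

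The regions called higher and lower had different profiles, in part by the way they were called. Medians of the 63 higher ones were 10.5 in ER+ luminal puberty, 13.7 in ER+ luminal adult and 35.6 in ER+ luminal pregnancy, against 1.43 to 6.60 in the basal and ER- luminal libraries. Medians of the 39 lower ones were 0.526, 3.42 and 50.9 in ER+ luminal cells, against 5.02 to 15.4 in the other cell types. The call set the order of ER+ luminal cells against the others at puberty and in adults. The rule makes ER+ luminal cells the highest in pregnancy for every member. A rise from a higher or from a lower earlier level is thus a description of how the regions were grouped. The next highest library was of ER+ luminal cells for 59 of the 63 and a pregnancy library for 32 of the 39, which also follows in part from the call.

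**Figure D5:**
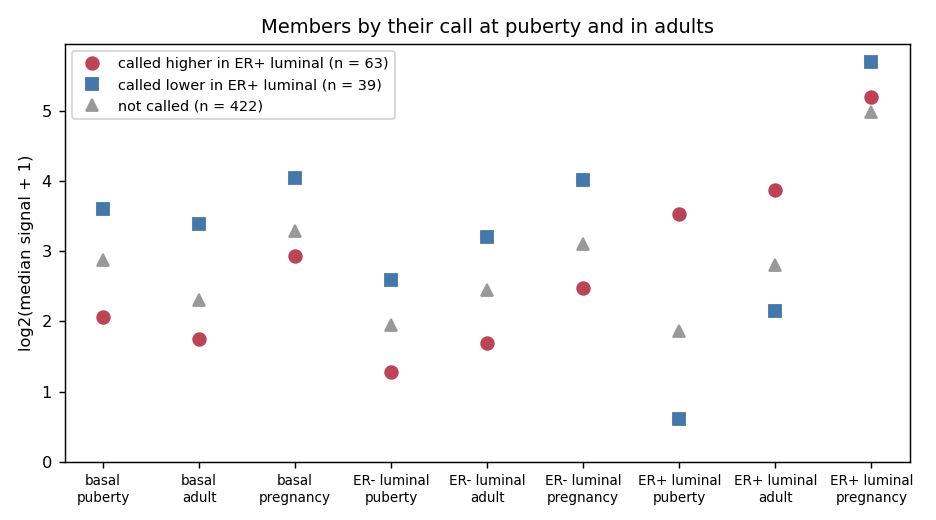
Median signal, as log2(median + 1), of the 63 regions called higher, the 39 called lower and the 422 not called between ER+ luminal and the other cell types in the libraries other than ER+ luminal pregnancy (limma). The 3 kinds are ordered in opposite ways in ER+ luminal puberty and adult and in the basal and ER- luminal libraries, which follows in part from the calls.

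Chosen after their values were seen as the most changed in each direction, merged88591 and merged115622 show these profiles. Region merged88591 had 19.98, 33.4 and 67.8 in ER+ luminal cells at puberty, in adults and in pregnancy, while ER- luminal cells had 0, 1.49 and 10.6 and basal cells 4.75, 7.10 and 13.2 (log2 difference 3.03, SE 0.62, limma adjusted p = 0.000194). It was higher in ER+ luminal cells at each of the 3 stages. Region merged115622 had 1.58, 0 and 37.3 in ER+ luminal cells, 10.8, 9.66 and 13.7 in ER- luminal and 7.12, 3.95 and 13.2 in basal cells (log2 difference -2.39, SE 0.65, limma adjusted p = 0.00318, but 0.116 without ER+ luminal adult and 0.179 at equal depth). Its ER+ luminal value was below both other cell types at puberty and in adults and above them in pregnancy. Of the open class, merged116561 and merged123859 were also called lower (log2 differences -1.28 and -1.51, SE 0.48 and 0.62, limma adjusted p = 0.0285 and 0.0442). These calls were lost in 4 and 9 of 15 alternatives. Without ER+ luminal puberty the log2 differences were -0.49 and -0.34. Of the brighter regions above, merged45420 was called lower (log2 difference -1.82, SE 0.47, limma adjusted p = 0.00205, and 0.0766 without ER+ luminal puberty), as was merged66920 (-1.26, SE 0.28, limma adjusted p = 0.00052, but 0.224 without ER+ luminal puberty and 0.114 with no variance trend).

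Pregnancy against the mean of the earlier stages, read in basal and ER- luminal cells only, had a positive log2 difference in 450 of the 524 regions (85.9%), with a median of 0.80 against 0.06 over all regions. Only 3 members (0.573%) were called higher and 0 lower, where 0.505% and 2.46% of all regions were called. An unadjusted limma p under 0.05, in either direction, was found in 93 members (17.7%), against 19.0% of all regions. These shares were 26.3% against 14.9% with no variance trend and 24.2% against 19.9% with a pseudocount of 4. They were 9.35% against 17.5% with a pseudocount of 0.25 and 10.1% against 12.5% at equal depth. The count of 3 became 21 without the basal puberty library, 10 with a pseudocount of 4, and 0 without ER- luminal pregnancy, with no variance trend or at equal depth, and edgeR on the reads called 2. The share called higher lies near the background, and the median difference is a description. The share of all regions with a positive difference was not counted, so the 85.9% has no background beside it. The members are also fainter than the regions behind the median of 0.06. Low values over all regions were higher in the basal and ER- luminal pregnancy libraries than at earlier stages, as given below. The part of that in the median of 0.80 was not tested. After quantile normalization the median was 0.51, against 0.01 over all regions, and 388 of the 524 were positive.

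All 3 called regions were chosen after their values were seen. Region merged15142 had pregnancy values of 33.0 (basal), 44.0 (ER- luminal) and 124 (ER+ luminal), and 0.717 to 12.0 in the 6 earlier libraries (log2 difference 3.21, SE 0.61, limma adjusted p = 0.00283). Without ER- luminal pregnancy its adjusted p was 0.0815. Regions merged56019 and merged124461 had log2 differences of 2.22 and 1.86 (SE 0.61 and 0.52, limma adjusted p = 0.0385 and 0.0435). The call of merged56019 was lost without any 1 of 6 libraries (all but basal puberty and ER+ luminal puberty), and that of merged124461 without any 1 of basal adult, basal pregnancy, ER- luminal puberty and ER- luminal pregnancy.

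Region merged15142 has neighbours in the running numbers with a far sharper contrast of stage. The 10 regions numbered 15137 to 15147 around it had pregnancy values of 131 to 1098 for ER+ luminal, 117 to 1411 for ER- luminal and 161 to 1073 for basal cells, and 0 to 41.9 in the 6 earlier libraries. None of them met the rule, since in none did ER+ luminal pregnancy exceed both other pregnancy libraries by the margin. In merged15142 the ER+ luminal value was 2.81 times that of ER- luminal pregnancy. Whether running numbers follow position in the genome is not stated.

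Steps from stage to stage inside a cell type rest on 2 libraries each, so they were not tested, and a gain or loss was counted where the log2 difference reached 1. From adult to pregnancy, ER- luminal cells gained at 216 of the 524 (41.2%) and lost at 21 (4.01%), where 15.4% and 10.5% of all regions did so. Basal cells gained at 223 (42.6%) and lost at 31 (5.92%), against 19.3% and 15.4%. The median log2 changes were 0.75 and 0.84, against 0.03 and -0.03 over all regions, and became 0.45 and 0.49 after quantile normalization. From puberty to pregnancy, ER- luminal cells gained at 304 (58.0%) and lost at 18 (3.44%), against 20.7% and 13.7%. Basal cells gained at 111 (21.2%) and lost at 53 (10.1%), against 17.8% and 12.1%. Faint regions pass such a fold more easily than bright ones, and the members are faint. Low values over all regions were also higher in these pregnancy libraries. The 10th percentile was 4.40 in basal pregnancy, against 3.17 at puberty and 2.37 in adults. In ER- luminal cells it was 3.03, against 2.15 and 2.23. The 90th percentiles were lower, at 101 against 126 and 140 in basal and 106 against 133 and 120 in ER- luminal cells. The part of this shift in the gains was not tested.

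From puberty to adult, ER+ luminal and basal cells went different ways. ER+ luminal cells gained at 214 (40.8%) and lost at 12 (2.29%), where 14.4% and 8.64% of all regions did so, with a median log2 change of 0.80 (0.46 with a pseudocount of 4 and 0.51 after quantile normalization). ER- luminal cells gained at 141 (26.9%) and lost at 34 (6.49%), against 12.9% and 9.44%, with a median of 0.50 that became 0.00 with reads thinned to equal depth. Basal cells gained at 28 (5.34%) and lost at 133 (25.4%), against 12.2% and 10.9%, with a median of -0.48 (-0.27 at equal depth). The adult ER+ luminal cells were thus above the pubertal ones at many of the regions that were highest in pregnancy.

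ER- luminal and basal cells were called apart at few members, whose signal in these libraries the rule had capped. Of the 524, 4 (0.763%) were higher in ER- luminal cells and 3 (0.573%) lower, where 9.51% and 12.2% of all regions were called. The median log2 difference was -0.24, against -0.01 over all regions, and turned to 0.15 without basal puberty. The most changed in each direction, chosen after their values were seen, were merged18019 and merged80529. Region merged18019 had 5.02, 9.66 and 7.58 in ER- luminal cells at puberty, in adults and in pregnancy, and 3.17, 0 and 0 in basal cells (log2 difference 2.35, SE 0.72, limma adjusted p = 0.0161). Region merged80529 had 0.717, 1.49 and 1.52 against 11.9, 3.95 and 15.4 (log2 difference -2.20, SE 0.70, limma adjusted p = 0.0207). Both calls were lost, with adjusted p of 0.0780 to 0.165, without single libraries: the first without basal or ER- luminal adult or pregnancy, the second without basal or ER- luminal puberty or pregnancy. The 7 calls became 1 to 12 without single libraries, the lowest without ER- luminal adult and the highest without basal pregnancy.

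Set beside the regions that peak in the other pregnancy libraries by the same rule, those of ER+ luminal cells had lower signal as deposited. Their median signal of 32.2 compares with 41.8 for the 563 regions of basal pregnancy and 40.2 for the 446 of ER- luminal pregnancy, and their mean over the other 8 libraries with 7.43 and 8.03, against 5.91. Median margins were 1.24, 1.21 and 1.20, and margins of 2 or more were found in 20 (3.82%), 14 (2.49%) and 8 (1.79%) regions. These values come from 1 library each and were not tested. For 275 of the 524 the next highest was another pregnancy library, as for 123 of the 563 and 212 of the 446.

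The members were found throughout the running numbers, but lay beside each other more often than their share of all regions, which was not tested. Of 10 equal stretches of the numbers, each held 37 to 78 of them, the most in the last. A member had another member at the next or previous number in 24 cases (4.58%). Of the 1048 regions next to a member, 24 (2.29%) were members, where 0.42% of all regions are, and no run of consecutive numbers was longer than 2.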

How the data were processed

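ATAC-seq signal was taken from 1 deposited table of 124860 regions in 9 libraries. Per the submitters' processing notes, the build was GRCm38 (mm10) and the tools included MACS2 2.1.0.20151222, Picard, SAMtools and Bowtie2 2.2.6. How the authors normalized the deposited signal, merged regions or treated Tn5 cut positions was not given in the sources used here. Total RNA is the molecule named in the labels, whose protocols describe Tn5 tagging of nuclei. Within 0.02 reads, 100% of values were whole multiples of 1 step per library, read as 1 read; signal was compared as deposited. Column names carry p or m after the receptor, read as plus and minus.

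The rule and the class limits (10 and 20) were applied in Python 3.11.15 with NumPy 2.4.6 and pandas 2.3.3. Exact binomial (Clopper-Pearson) 95% intervals and Poisson sums used SciPy 1.17.1. Limma 3.58.1 in R 4.3.3 was run on log2(signal + 1) with a variance trend and no filter on low values; log2 differences understate changes of faint regions. edgeR 4.0.16 on the recovered reads was the alternative. The fit and the rule were also run on simulated data, with changes placed only in regions at or above the median level. Most members lie under that level, so these runs do not show how well changes are found at their signal. PCR copies are not independent molecules, so intervals and floors of 3 reads cover counting error only.

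The regions, classes and tests were chosen with earlier results of these data known. Named regions were, by rule, those with the highest signal and the largest margin in the set and in each class; others are marked where they appear. RefSeq tables were not used because the table pairs regions with neither genes nor positions.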

Additional observations from a re-analysis of the deposited data

Results flagged for a closer look

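From puberty to adult, the median log2 change of the 524 regions had opposite signs in basal cells and in both luminal types. Basal cells had -0.48 and ER+ luminal cells 0.80, which are 1.28 apart. ER- luminal cells had 0.50, which is 0.98 from the basal value. Each cell type has 1 library per stage, so the differences were not tested. With reads thinned to equal depth basal cells had -0.27, ER+ luminal cells 0.83 and ER- luminal cells 0.00, so that the second difference no longer had opposite signs. None of these libraries is ER+ luminal pregnancy, though the rule set an upper limit on all of them.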

How the results depend on the processing

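The 524 regions became 164 with a minimum signal of 40, 20 with a margin of 2, 1270 with libraries scaled to equal total reads, 1015 after quantile normalization and 152 in both parts of the divided reads; without single libraries they ranged from 539 to 1123. They stayed within 1.5 times under the other settings (355 with a pseudocount of 4, 577 with TMM scaling, 555 at equal depth, of which 338 were among the 524). The 111.3 regions expected from read noise became 2.15 with the true level at the mean of the other ER+ luminal and pregnancy libraries, 1090.6 with a negative binomial, and 22.3 with both, the last added after the data had been seen. Of the 7 calls between ER- luminal and basal cells, a pseudocount of 0.25 and edgeR gave 4 each, a mean signal of at least 10 gave 2 and equal depth 0; without single libraries there were 1 to 12. The 102 calls between ER+ luminal and the other cell types became 23 with that filter, which kept 96 of the regions, and 43 at equal depth, and 26 to 120 without single libraries; edgeR gave 100. The 3 pregnancy calls became 1 with a pseudocount of 0.25 or quantile normalization, 10 with a pseudocount of 4, and 0 with no variance trend or at equal depth, and 0 to 21 without single libraries. The causes of these changes were not tested. The call of merged88591 held in all 15 alternatives (adjusted p 1.38e-05 to 0.0184), that of merged45420 in 14 of 15 (0.00117 to 0.0766), that of merged66920 in 13 of 15 (5.62e-06 to 0.224), that of merged115622 in 12 of 14 (0.00270 to 0.179), and that of merged15142 in 12 of 15 (0.000197 to 0.246). The other calls checked held less often: merged116561 in 11 of 15, merged18019 and merged80529 in 8 of 14 each, merged123859 and merged124461 in 6 of 15 each, and merged56019 in 3 of 14. At equal depth the limma adjusted p of merged18019 was 0.27 and that of merged80529 was 0.0697. No paired analysis was possible because each cell type and stage had 1 library and the labels number no replicates. At a median of 19 reads per region, a ratio near the limit of the rule could not be told from a smaller one.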
